A study of Mus musculus with 9 samples.

Results

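Hepatocyte barcodes were compared at the 2 ends of a ranking that placed them between a pericentral and a periportal profile. Each barcode of a Drop-seq table stands for 1 droplet, and its UMIs (unique molecular identifiers) count captured transcript molecules. The barcodes were chosen by their measured Cyp2e1 and Cyp2f2 UMIs. Those with at least 1000 UMIs and at least 10 UMIs of Alb (albumin) were ranked within their table by log2 of (Cyp2e1 + 1) over (Cyp2f2 + 1), from raw UMIs. Cyp2e1 is a cytochrome P450 gene known from pericentral hepatocytes, and Cyp2f2 one known from periportal hepatocytes. The top 10% of each table formed the pericentral side and the bottom 10% the periportal side, with ties broken by barcode name. Of 48000 barcodes in 9 tables, 22512 passed both limits. The table of mouse 7 (PBS), with 46 such barcodes, was not ranked. The other 8 tables gave 22466 ranked barcodes and 2244 on each side, 4488 in all, with 73 (mouse 2) to 545 (mouse 9) per side and table.

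The study profiled single liver cells of male C57BL/6 mice, 8 weeks old and injected intravenously, with 1 table per mouse. The ranked tables came from PBS-injected mice 1 and 4, from mice 2, 5 and 8 given AAVrh.10Null, and from mice 3, 6 and 9 given AAVrh.10mCherry. AAVrh.10 is a serotype of adeno-associated virus, and the names mark a vector with no named product and one that carries the red fluorescent protein mCherry. No source used here gives the vector's promoter, its dose or the time after injection.

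Blood enters the liver lobule at the portal triads and leaves through the central vein, and hepatocytes along this path differ in their work. Those near the central vein receive Wnt signals from the vein's endothelium and are known for glutamine synthesis, bile acid synthesis and drug metabolism. Those near the portal triads are known for urea production, glucose output, amino acid breakdown and the secretion of many plasma proteins.

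The ranking genes chose the barcodes, so their values are a description only. The median log2 ratio per table lay between 2 and 3.46 on the pericentral side and between -2.32 and 0 on the periportal side. At the upper limit the last barcode taken and the first one left out had the same ratio in every table, from 1.58 in mice 2, 4 and 8 to 3.17 in mouse 9. At the lower limit the 2 ratios were the same in 6 tables, from -2 in mouse 8 to 0.415 in mouse 9. The 2 ratios were -0.58 and -0.49 in mouse 3 and -0.32 and 0 in mouse 6. The periportal side of mouse 9 therefore took in barcodes with more Cyp2e1 than Cyp2f2 UMIs. Its sum held 1237 Cyp2e1 and 1598 Cyp2f2 UMIs. The 2 genes made up 0.277% to 0.744% of the UMIs of a pericentral sum and 0.128% to 0.378% of a periportal one. They were removed before library sizes were set and enter no result.

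The summed sides held between 102968 and 1281401 UMIs. Median UMIs per barcode were 1144 to 1957 on the pericentral side and 1147 to 2700 on the periportal side. In mouse 8 the medians were 1144 and 2700, and in mouse 6 they were 1323 and 1583, with the periportal side deeper in both. Barcodes ending in an undetermined base made up 20.2% to 29.9% of each side in 6 tables, 0% in mouse 2 and at most 2.21% in mouse 8, so these 2 AAVrh.10Null tables stood apart in their barcodes. Only 2 of the selected barcode sequences occurred in a pair of tables.

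Markers that were not used for the ranking were read as a check of the labels. Of 9 pericentral markers (Glul, Oat, Rhbg, Slc1a2, Lgr5, Axin2, Tbx3, Cyp1a2 and Gulo), 6 passed the filter on low counts and all 6 were higher on the pericentral side. Lgr5, Axin2 and Rhbg did not pass that filter. Of 10 periportal markers, 9 were higher on the periportal side. Ass1, argininosuccinate synthase of the urea cycle, did not pass the test, with a log2 difference of -0.13 ± 0.08 (SE). All tests between the sides used edgeR's quasi-likelihood test on the 16 sums with the table as a pair and Benjamini-Hochberg adjustment over 5419 genes. Each difference is pericentral minus periportal on the log2 scale, and a call is an adjusted p under 0.05.

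Across these genes 87 were called higher on the pericentral side (1.61% of those tested) and 244 higher on the periportal side (4.5%). Both directions together came to 331 genes (6.11%), and unadjusted p was under 0.05 for 839. Without mouse 1 (PBS) the pericentral count was 57. The median difference of all genes was 0.01. With library size as the only scaling, the split was 181 to 157, the share on the pericentral side went from 26.3% to 53.6%, and the median of all genes moved to 0.11. Of the genes tested, 77 (1.42%) were higher on the pericentral side in all 8 tables and 219 (4.04%) higher on the periportal side in all 8. The ranges of the 2 sides across tables did not overlap for 3 genes higher on the pericentral side (0.0554%) and 14 higher on the periportal side (0.258%). Rgn, Slco1b2 and Coa6 were the 3.

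The pericentral list held 23 genes known as targets or companions of Wnt signalling around the central vein. Of the 14 that passed the filter, 12 were called higher on the pericentral side and none on the periportal side, against 1.61% of all genes. Their median difference was 0.83, against 0.01 for all genes tested. The list was chosen with earlier results of these data known, and its per-table medians ran from 0.28 (mouse 3) to 2.07 (mouse 8). Tcf7l2 and Ctnnb1, which encode the transcription factor and the beta-catenin that carry the Wnt signal, were not called, at -0.64 ± 0.26 and -0.28 ± 0.15.

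Glul encodes glutamine synthetase, which binds ammonia into glutamine in the hepatocytes at the central vein. On the pericentral side its level, in CPM (UMIs scaled to a common library total, after TMM normalisation), was 62.1 at the lowest, 137 at the median and 385 at the highest. On the periportal side it was 7.62, 69.2 and 91.6. Its pericentral value was the higher one in 8 of 8 tables, and the ranges overlapped. Per table the difference ran from 0.04 in mouse 3 and 0.22 in mouse 9 to 2.51 in mouse 8 and 4.27 in mouse 6. The fitted difference was 1.06 ± 0.20 (SE; adjusted p = 0.00018). Oat, ornithine aminotransferase, stood at 232, 283 and 405 CPM on the pericentral side (lowest, median, highest). The periportal values were 28.6, 150 and 232 CPM. Each table was higher on the pericentral side, and the difference was 1.02 ± 0.14 (adjusted p = 9.8e-07). Slc1a2, a glutamate transporter, was low at 32.9 ± 14.9 CPM against 16.2 ± 12.4 (SD, n = 8) and was higher by 0.94 ± 0.24.

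Cyp7a1, the rate-limiting enzyme of bile acid synthesis from cholesterol, had the largest difference among the genes named by rank. Its pericentral level was 25.6 CPM at the lowest, 93.2 at the median and 211 at the highest. The periportal level was 5.05, 26.0 and 73.1 CPM. All 8 tables were higher on the pericentral side, by 1.38 ± 0.19 in the fit (adjusted p = 9.8e-07). The ranges overlapped, because tables differed in their overall Cyp7a1 level. Rgn, regucalcin, a calcium-binding protein, did not overlap between the sides. It lay between 818 and 1302 CPM on the pericentral side and between 110 and 746 CPM on the periportal side (difference 0.99 ± 0.15, adjusted p = 6.0e-06).

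The other genes named by rank on the pericentral side had smaller differences. Adh6-ps1, listed as an alcohol dehydrogenase pseudogene, differed by 0.80 ± 0.14, and Gm13775 by 0.59 ± 0.12. Clec2d, a C-type lectin, differed by 0.59 ± 0.16 and Metap1d, a mitochondrial methionine aminopeptidase, by 0.56 ± 0.14. Coa6, a cytochrome c oxidase assembly factor, differed by 0.55 ± 0.17 at 54.3 against 34.5 CPM. Tsc22d1, a leucine zipper regulator, differed by 0.58 ± 0.18, with 0 periportal UMIs in mouse 2.

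Of the transcription factors, 28 of 37 listed passed the filter, 3 were called on the pericentral side and 1 on the periportal side. Over all genes the shares were 1.61% and 4.5%, and the 1 periportal call of 28 is near the latter. Tbx3, a repressor known as a Wnt target, had a mean of 30.9 ± 16.2 CPM on the pericentral side and 7.53 ± 5.68 CPM on the periportal side (SD, n = 8) and differed by 1.59 ± 0.34. Ahr, the aryl hydrocarbon receptor, differed by 1.17 ± 0.34 with 25.3 ± 15.1 against 9.46 ± 3.36 CPM. Nr1i3 encodes the constitutive androstane receptor, which switches on drug metabolism genes. It differed by 1.04 ± 0.15 and was higher on the pericentral side in 7 of 8 tables, with mouse 9 as the exception. Zbtb20 fell by 0.34 (SE 0.08). Hnf4a, a general regulator of hepatocyte genes, was not called, at -0.31 ± 0.10 (adjusted p = 0.068).

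**Figure D1:**
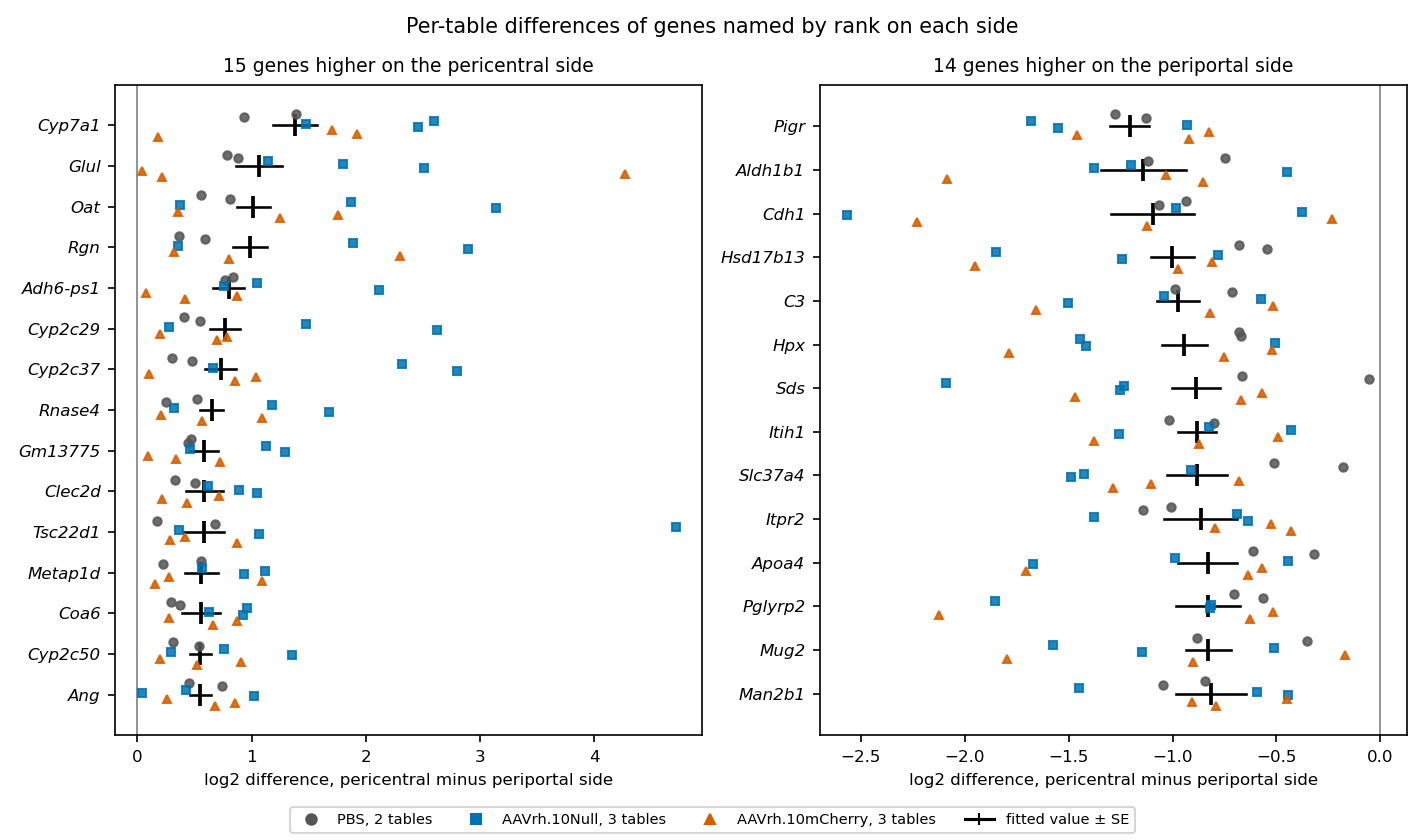
Per-table log2 differences (x axis, pericentral minus periportal side) of the genes named by rank, 15 higher on the pericentral and 14 on the periportal side; points are tables, coloured by treatment, and the black bar is the fitted value with its SE. All points lie on 1 side of 0, since the same sign in all 8 tables was part of the choice. The point at 4.71 (Tsc22d1, mouse 2) has 0 UMIs on the periportal side, so its place depends on the count added before taking logs.

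Promoters are shown for 5 of the called loci, where the window of 250 bases before to 50 bases after the RefSeq start (build GRCm38.p6) held 1 of 3 motifs searched on both strands. Capitals mark CTTTGAT, the TCF/LEF element of Wnt signalling, or its reverse complement ATCAAAG, and in the locus of Rnase4 and Ang they mark TTGCGTG, which holds the core of the AHR element and here lies inside the transcribed part, at +44. Rnase4 and Ang, which encode secreted ribonucleases, have the same start in the RefSeq table, and both were higher on the pericentral side, by 0.65 ± 0.10 and 0.55 ± 0.09, in 8 of 8 tables each. Because their transcripts overlap at that start, no source used here says how reads were split between them. Slc1a2, Lect2 (a hepatocyte-secreted chemotaxin, 0.71 ± 0.15) and Cyp2c29 (0.77 ± 0.13) were higher on the pericentral side. Hal is shown because it holds the same letters and was called in the other direction.

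Rnase4 and Ang (chr14:51090827-51091126, plus strand): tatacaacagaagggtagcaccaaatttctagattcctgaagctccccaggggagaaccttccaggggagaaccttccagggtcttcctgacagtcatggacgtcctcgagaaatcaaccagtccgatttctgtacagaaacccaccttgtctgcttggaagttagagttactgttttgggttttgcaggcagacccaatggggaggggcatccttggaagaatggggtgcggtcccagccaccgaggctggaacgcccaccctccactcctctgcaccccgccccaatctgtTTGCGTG
Slc1a2 (chr2:102706188-102706487, plus strand): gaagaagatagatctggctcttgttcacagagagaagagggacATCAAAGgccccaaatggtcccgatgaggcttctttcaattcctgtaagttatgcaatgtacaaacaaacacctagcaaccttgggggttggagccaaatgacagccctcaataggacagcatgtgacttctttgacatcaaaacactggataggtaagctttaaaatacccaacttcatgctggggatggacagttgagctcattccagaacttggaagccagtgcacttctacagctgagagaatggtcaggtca
Lect2 (chr13:56548489-56548788, minus strand): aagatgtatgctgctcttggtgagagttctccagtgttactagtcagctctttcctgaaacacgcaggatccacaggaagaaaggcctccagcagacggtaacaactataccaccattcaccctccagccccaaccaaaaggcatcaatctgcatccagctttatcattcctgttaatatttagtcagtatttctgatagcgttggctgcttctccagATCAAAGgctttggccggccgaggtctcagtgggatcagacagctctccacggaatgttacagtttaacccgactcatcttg
Cyp2c29 (chr19:39286835-39287134, plus strand): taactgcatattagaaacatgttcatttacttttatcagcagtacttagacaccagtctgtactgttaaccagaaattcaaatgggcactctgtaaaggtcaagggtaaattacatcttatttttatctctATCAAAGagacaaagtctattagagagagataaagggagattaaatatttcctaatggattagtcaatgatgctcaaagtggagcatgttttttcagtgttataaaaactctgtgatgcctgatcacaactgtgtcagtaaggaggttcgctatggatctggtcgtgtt
Hal (chr10:93488518-93488817, plus strand): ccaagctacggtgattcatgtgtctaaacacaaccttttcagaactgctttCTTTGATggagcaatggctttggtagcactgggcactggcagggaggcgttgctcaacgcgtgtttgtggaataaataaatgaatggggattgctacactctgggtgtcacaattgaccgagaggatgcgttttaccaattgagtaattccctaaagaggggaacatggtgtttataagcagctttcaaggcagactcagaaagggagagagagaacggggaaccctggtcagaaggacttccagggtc

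CTTTGAT was found in 6 of 59 promoters of genes called on the pericentral side, in 7 of 184 on the periportal side, and in 135 of 4367 of all genes tested (3.09%). TTGCGTG was found in 2 of 59 and 2 of 184, against 1.88% of genes tested. CAAAGTCCA, an HNF4A element that can share its first 5 letters with a TCF/LEF match on the other strand, was found in 1 of 59 and 2 of 184, against 0.618%. A promoter was matched for 67.8% and 75.4% of the called genes, which is under the 80% needed, so a comparison of these shares is void. A match describes letters in a window and no binding.

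Detoxification genes moved in both directions. Of all genes tested, 1.61% were called on the pericentral side and 4.5% on the periportal side. Of the 39 cytochrome P450 genes tested apart from the ranking genes, 8 were higher on the pericentral side and 5 on the periportal side, and their median was -0.05, or 0.06 with library size as the only scaling, where 8 and 2 were called. The 8 included members of the Cyp2c cluster, whose proteins oxidise fatty acids and drugs and whose close sequence similarity makes the assignment of reads among them uncertain. Cyp2c29 had 2087 ± 879 CPM on the pericentral side and 1331 ± 735 CPM on the periportal side (SD, n = 8). Cyp2c37 differed by 0.73 ± 0.14 and Cyp2c50 by 0.55 ± 0.09. Cyp2a5, a coumarin hydroxylase, differed by 0.89 ± 0.20, and Cyp1a2, a target of the aryl hydrocarbon receptor, by 0.51 ± 0.12. Among the 5 on the periportal side, Cyp2d10 fell by 0.57 (SE 0.09) without overlap between the sides, and Cyp2d26 fell by 0.55 (SE 0.10). Cyp3a11, a drug-metabolising P450 gene at 4050 ± 1266 CPM on the pericentral side, was not called, at -0.06 ± 0.09.

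Of 18 glutathione S-transferase genes, which encode conjugating enzymes, 4 were higher on the pericentral side and none on the periportal side. The shares over all genes were 1.61% and 4.5%. Gstm2 differed by 1.20 ± 0.24 and Gstm3 by 0.73 ± 0.16. Gsta3, at 2030 ± 381 against 1557 ± 361 CPM, differed by 0.38 ± 0.09, and Gstm1 by 0.29 ± 0.09. The conjugation genes of the UDP-glucuronosyltransferase and sulfotransferase families had 1 of 16 called on the pericentral side (Sult2a8, 0.48 ± 0.09) and 5 on the periportal side. With library size as the only scaling the counts were 2 and 2, and their median turned from -0.01 to 0.09. Ugt2b5 fell by 0.52 (SE 0.09) and Ugt2b38 by 0.99 (SE 0.18). Carboxylesterases, which cleave ester drugs and lipids, supplied most of the 7 periportal calls among 23 other phase I genes, and Ces1c fell by 0.74 (SE 0.09) and Ces2a by 0.67 (SE 0.09). With library size as the only scaling this list had 4 calls on each side, against 3 and 7. Aldh3a2, a fatty aldehyde dehydrogenase, was 1 of 3 on the pericentral side (0.96 ± 0.22).

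Bile acid genes were called in both directions, and most were not called. Of 15 genes of synthesis and its control, 3 were called on the pericentral side, 2 on the periportal side and 10 not at all. Their median was 0.01, as for all genes tested. Cyp27a1, the sterol 27-hydroxylase, rose by 0.30 ± 0.09 beside Cyp7a1. Akr1c6, an aldo-keto reductase, rose by 0.46 ± 0.11. Slc27a5, the ligase that activates bile acids for conjugation, fell by 0.78 (SE 0.09), from 683 ± 167 CPM on the periportal side to 388 ± 99.1 CPM on the pericentral side (SD, n = 8). Cyp8b1, the 12-alpha hydroxylase that sets the share of cholic acid, fell by 0.34 (SE 0.10) and was lower on the pericentral side in 8 of 8 tables. Of 14 transport genes 1 was called on each side (1.61% and 4.5% over all genes) and 12 were not called. Abcb11, the canalicular bile salt pump, fell by 0.50 (SE 0.09). Slco1b2, an uptake carrier for organic anions, rose by 0.45 ± 0.09. Slco1b2 lay between 980 and 1190 CPM on the pericentral side and between 629 and 933 CPM on the periportal side.

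The periportal list held 25 genes, of which 24 passed the filter. Of these, 18 were called higher on the periportal side and none on the pericentral side, against 4.5% of all genes, and the median was -0.59. This list too was chosen with earlier results known, and its per-table medians were all below 0, from -1.04 (mouse 6) to -0.28 (mice 3 and 4). Pigr encodes the receptor that carries polymeric immunoglobulin into bile. It lay at 1082, 1931 and 3257 CPM on the periportal side (lowest, median, highest) and at 572, 901 and 1181 CPM on the pericentral side. Pigr fell in every table, by 1.21 in the fit (SE 0.09; adjusted p = 1.5e-13), although the highest pericentral table exceeded the lowest periportal one. Hsd17b13, a lipid droplet enzyme, did not overlap, with 436 to 808 CPM on the periportal side and 160 to 339 CPM on the pericentral side, and fell by 1.002 (SE 0.10; adjusted p = 2.0e-09). Cdh1, E-cadherin, fell by 1.10 (SE 0.20), from 54.8 ± 15.5 to 22.9 ± 9.28 CPM, also without overlap. Aldh1b1, a mitochondrial aldehyde dehydrogenase, fell by 1.14 (SE 0.20). Other genes named by rank here were Itpr2, a calcium release channel (fell by 0.86, SE 0.18), Mug2, a protease inhibitor (by 0.83, SE 0.11), Pglyrp2, a peptidoglycan amidase (by 0.83, SE 0.15), and Man2b1, a lysosomal mannosidase (by 0.81, SE 0.17).

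Genes of amino acid breakdown were called in 11 of 53 cases, 10 on the periportal side (6 of 8 with library size as the only scaling). Of all genes, 1.61% were called on the pericentral side and 4.5% on the periportal side. Sds, serine dehydratase, was at 358 ± 166 CPM on the periportal side and 168 ± 58.2 CPM on the pericentral side, and fell by 0.89 (SE 0.11). Sdsl, its close relative, fell by 1.29 (SE 0.26). Hal, histidine ammonia lyase, fell by 0.73 (SE 0.10) with no overlap, from 488 to 1105 CPM on the periportal side to 262 to 440 CPM on the pericentral side. Uroc1 and Ftcd, the next enzymes of histidine breakdown in the list, fell by 0.41 (SE 0.10) and 0.63 (SE 0.10). Cdo1, cysteine dioxygenase, was called on the pericentral side, with a rise of 0.43 ± 0.09, and 1 of 53 is near the 1.61% of all genes. In the urea cycle 2 of 9 genes were called, on the periportal side, against 4.5% of all genes. Asl, argininosuccinate lyase, fell by 0.61 (SE 0.11) and Cps1, carbamoyl phosphate synthetase, by 0.55 (SE 0.10). Arg1 and Otc were not called, at -0.03 ± 0.08 each, with 1681 ± 366 against 1716 ± 288 CPM for Arg1. Glutamine handling was divided, with Glul, Oat and Slc1a2 on the pericentral side and 4 of the 9 genes on the periportal side, among them Gls2, the liver glutaminase (fell by 0.66, SE 0.10), and Slc7a2, a cationic amino acid carrier (fell by 0.72, SE 0.13).

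All 11 genes tested for glucose output had differences below 0, and 5 were called (3 with library size as the only scaling). Slc37a4, the glucose-6-phosphate carrier, fell by 0.88 (SE 0.14), Pcx, pyruvate carboxylase, by 0.58 (SE 0.12), and G6pc, the glucose-6-phosphatase subunit, by 0.38 (SE 0.11). Pck1, the phosphoenolpyruvate carboxykinase, fell by 0.29 (SE 0.09) at 1051 ± 316 CPM on the periportal side. Of 10 glycolysis genes only Slc2a2, the glucose carrier of the hepatocyte surface, was called and fell by 0.64 (SE 0.11). Over all genes 4.5% were called on that side. None of 8 glycogen genes was called, which says little for so short a list, since 6.11% of all genes were called. In fatty acid oxidation 3 of 32 genes were higher on the pericentral side (Acaa1b 0.36 ± 0.09, Acat1 0.31 ± 0.08, Eci2 0.35 ± 0.10) and none on the periportal side. That count was 7 with library size as the only scaling, and 0 without the filter on low counts, without the table block and in each thinned form. Of 24 lipogenesis genes 4 were called, all on the periportal side. With library size as the only scaling there were 2 pericentral and 4 periportal calls. The shares over all genes were 1.61% on the pericentral side and 4.5% on the periportal side. Acly, ATP citrate lyase, fell by 0.73 (SE 0.12), Fasn, fatty acid synthase, by 0.67 (SE 0.12), and Srebf1, the factor that drives both, by 0.59 (SE 0.15).

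Several lists of secreted plasma proteins were counted, and some genes belong to more than one of them. Alb, used in the entry limit, was itself lower on the pericentral side, at 32897 ± 6586 CPM against 54914 ± 10403 CPM (SD, n = 8), and fell by 0.74 (SE 0.12). Since at least 10 Alb UMIs were required on both sides, Alb is not independent of the choice of barcodes. Of 16 genes of albumin and carrier proteins, 10 were called, all on the periportal side (4.5% over all genes), and the median was -0.38. Hpx, the haem carrier hemopexin, fell by 0.94 (SE 0.11) from 3344 ± 859 to 1718 ± 449 CPM and did not overlap. Cp, the copper carrier ceruloplasmin, fell by 0.81 (SE 0.09), and Trf, transferrin, by 0.70 (SE 0.10). Ttr, transthyretin, was not called (-0.10).

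In the complement system 16 of 28 genes were called, all on the periportal side (4.5% over all genes). C3, its central component, fell by 0.97 (SE 0.10), from 3410 ± 1456 to 1656 ± 499 CPM. Cfb, factor B, fell by 1.10 (SE 0.17), C2 by 0.86 (SE 0.17) and C4b by 0.76 (SE 0.10). The macrophage components C1qa, C1qb and C1qc had differences of 0.72, 0.67 and 0.55 and were not called. In coagulation 15 of 25 genes were called, again all on the periportal side, with F10 falling by 0.74 (SE 0.09), F2, prothrombin, by 0.74 (SE 0.10), and Serpinf2, the plasmin inhibitor, by 0.66 (SE 0.09). F9 and Hrg were not called, at -0.21 and -0.16. Of 24 acute phase genes 13 were called on the periportal side and 1, Hamp (hepcidin, 0.29 ± 0.09), on the pericentral side. Itih1, a hyaluronan-binding inter-alpha inhibitor chain, fell by 0.88 (SE 0.09). Saa1 and Saa2, the inducible serum amyloids, were not called.

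Of 16 apolipoprotein genes, 5 fell, led by Apoa4 (by 0.83, SE 0.14) and including Apoe, which went from 22769 ± 2725 to 16150 ± 2664 CPM (fell by 0.50, SE 0.11). Of 15 iron genes, 7 fell and Hamp rose. Among those that fell were Tmprss6, the protease that restrains hepcidin, by 0.73 (SE 0.12), and Tfr2, an iron sensor, by 0.64 (SE 0.12). Endoplasmic reticulum chaperones were part of the periportal set, with 6 of 26 heat shock and unfolded protein genes called, against 4.5% of all genes. Hspa5 fell by 0.65 (SE 0.09) and Hsp90b1 by 0.51 (SE 0.09). MHC class I presentation genes were called in 7 of 14 cases, all on the periportal side (4 with library size as the only scaling), with H2-K1 falling by 0.57 (SE 0.09). None of 17 interferon genes, 12 immediate early genes or 23 metallothionein and NRF2 genes was called. Both directions together held 6.11% of all genes, so no call in lists this short says little.

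**Figure D2:**
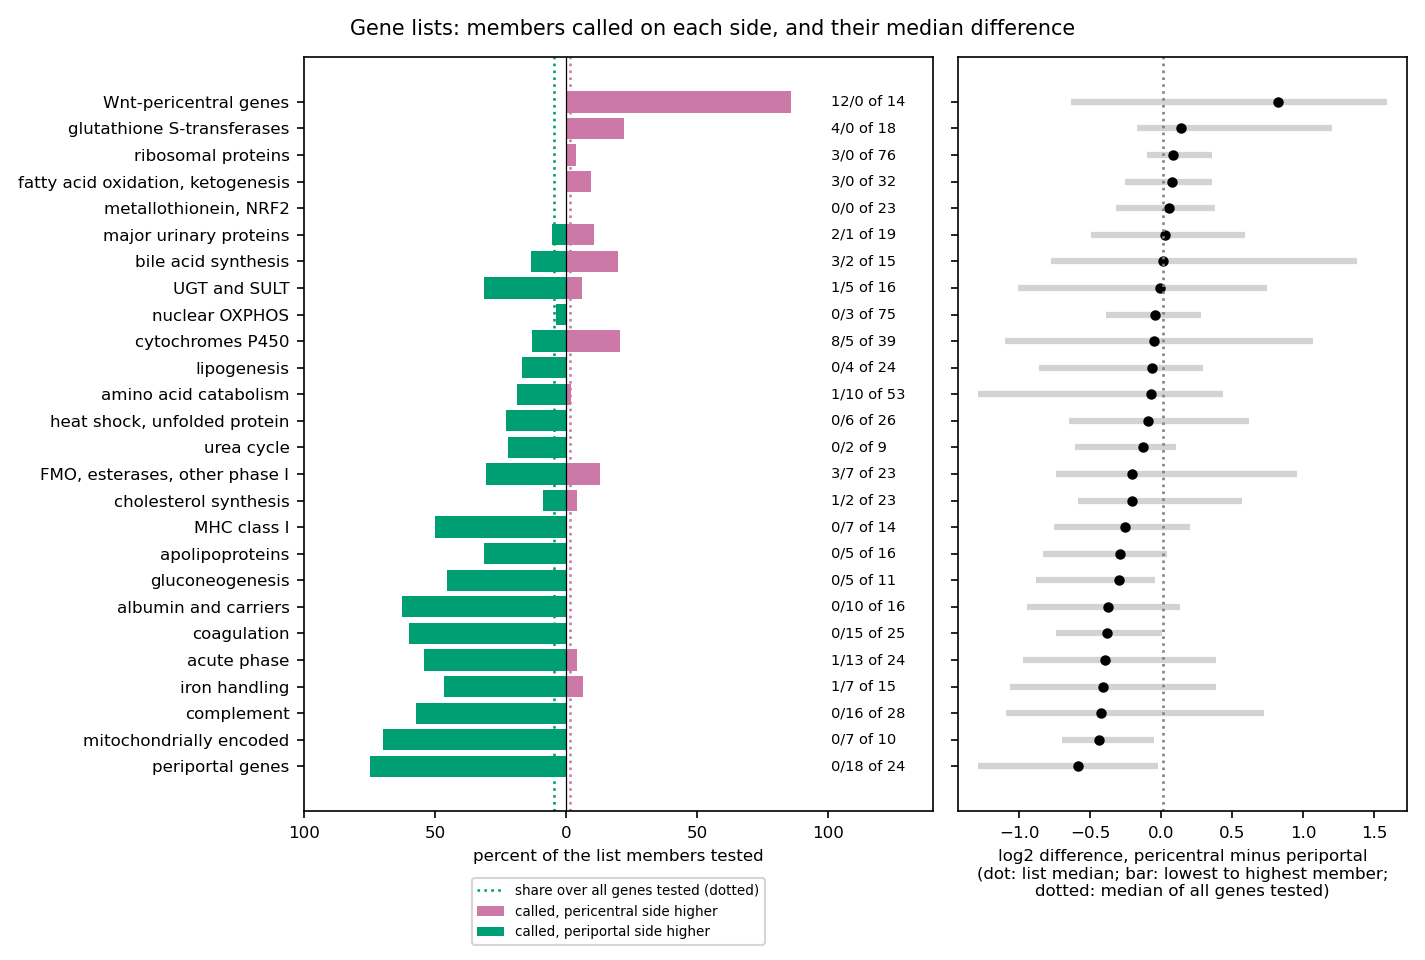
Left, percent of the tested members of each gene list called on the pericentral (right of 0) or periportal side (left of 0), with the counts and, dotted, the shares over all genes (1.61% and 4.5%); right, the median log2 difference of each list and the range of its members. The Wnt-pericentral list stands at 12 of 14 and the periportal list at 18 of 24.

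Of the 10 mitochondrially encoded transcripts tested, 7 were called, all on the periportal side. mt-Co1 fell by 0.62 (SE 0.10), from 2683 ± 612 to 1811 ± 723 CPM, and mt-Nd1 by 0.57 (SE 0.10). With library size as the only scaling 4 of the 10 were called. The per-table medians of these 10 ran from -1.11 (mouse 4) to -0.01 (mouse 8). The mitochondrial share of UMIs was 8.66% ± 4.13 on the pericentral side and 9.11% ± 4.46 on the periportal side (SD, n = 8). It was lower on the pericentral side in 6 of 8 tables (exact sign-flip test, two-sided, p = 0.75). The exceptions were mouse 8, at 14.3% on the pericentral side against 7.12%, and mouse 9, at 10.3% against 9.41%. Of 75 nuclear genes of oxidative phosphorylation 3 fell, a share near the 4.5% of all genes, and 1 fell and 1 rose with library size as the only scaling. Of 76 ribosomal protein genes 3 rose, where 1.61% of all genes did. The count was 11 with library size as the only scaling and 0 with DESeq2. Major urinary proteins are a family of near-identical copies whose reads cannot be assigned with certainty. Of 19 tested, 2 were called on the pericentral side (Mup17 0.49 ± 0.11, Mup11 0.39 ± 0.11), against 1.61% of all genes. Mup20 was called on the periportal side (fell by 0.50, SE 0.11), and 1 of 19 is near the 4.5% of all genes.

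Malat1, an RNA kept in the nucleus, and markers of other cells were followed in the same sums, without TMM scaling. Malat1 averaged 12579 ± 11063 CPM on the pericentral side and 8420 ± 4458 CPM on the periportal side (SD, n = 8). It was higher on the pericentral side in 6 of 8 tables (exact sign-flip test, two-sided, p = 0.16). The values were 36448 against 17988 CPM in mouse 2 and 21102 against 9860 CPM in mouse 8. Their bearing on the gene calls was not tested. Kupffer cell and macrophage markers summed to 426 ± 326 CPM on the pericentral side (range 56.3 to 1023) and 250 ± 249 CPM on the periportal side (74.5 to 838), higher on the pericentral side in 6 of 8 tables (exact sign-flip test, two-sided, p = 0.19). Of 11 such genes tested, Wfdc17, Ctss and Lyz2 were called on the pericentral side, and none of 6 was called with barcodes thinned to 1000 UMIs. Stellate cell markers summed to 197 ± 133 against 96.3 ± 50.6 CPM, higher in 7 of 8 tables (exact p = 0.031, adjusted over 10 measures 0.31), and Dcn was the 1 called of 3 tested. Endothelial markers summed to 261 ± 161 against 180 ± 147 CPM, with none of 7 called, and no marker of central vein or portal endothelium passed the filter. Neutrophil markers were at 0 on the periportal side in all 8 tables and above 0 in 2 on the pericentral side. Antigen presentation genes of immune cells were also among the 87, with Cd74 at 0.95 ± 0.27, H2-Ab1 at 0.96 ± 0.28 and H2-Aa at 0.93 ± 0.28. A limit was also set on markers of endothelial, Kupffer, T and NK, B and plasma, stellate, neutrophil and bile duct cells. Cd74, H2-Ab1 and H2-Aa were not among these markers. With barcodes of more than 2 UMIs of these markers removed, 51 genes were called on the pericentral side and 200 on the periportal side. The pericentral and periportal lists then stood at 9 of 14 and 15 of 24.

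The same lists were read without the tables that stood apart. Without mice 2 and 8 the pericentral list had 10 of 14 called and the periportal list 16 of 24, and 71 and 201 genes were called in all. Without mice 6 and 8, whose median UMIs per barcode differed most, the lists stood at 10 of 14 and 14 of 24, with 61 and 186 genes in all. The periportal sum was also larger in mouse 2, at 170726 against 102968 UMIs. Without mice 2, 6 and 8 the lists stood at 9 of 14 and 14 of 24, with 61 and 181 genes in all. With barcodes ranked as before but thinned to 1000 UMIs each before summing, 24 and 106 genes were called. With both the ranking and the sums made on thinned barcodes, 10 and 52 genes were called, and the lists stood at 3 of 12 and 6 of 24. In that form complement had 4 genes called, coagulation 2, the acute phase list 7, the albumin and carrier list 6 and the glutathione S-transferases none.

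The whole ranking was also cut into 10 equal bins, from 1 (most periportal) to 10 (most pericentral). Bin 1 is the periportal side. Bin 10 is the pericentral side or nearly so, with for example 520 barcodes against 519 in mouse 1. The 8 genes plotted were picked from those called between the sides. Not all genes named by rank ran from end to end. Adh6-ps1 and Clec2d were highest in bin 9 and Man2b1 in bin 5, and Aldh1b1, Cdh1, Itih1 and Apoa4 were lowest in bins 7, 9, 8 and 4. The called markers of other cells did not peak at the pericentral end. Wfdc17 and Ctss were highest in bin 6, Lyz2 in bin 3 and Dcn in bin 4. Pigr averaged 1994 CPM in bin 1, 1531 in bin 2, 1201 in bin 6 and 901 in bin 10. Hsd17b13 went from 544 to 382 CPM between bins 1 and 2 and from 318 to 272 between bins 9 and 10. Oat averaged 133 CPM in bin 1, 238 in bin 6 and 313 in bin 10. Glul was at 56.7 CPM in bin 1, 112 in bin 9 and 168 in bin 10, where its SD over tables was 115. These levels describe all 22466 barcodes and were not tested.

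**Figure D3:**
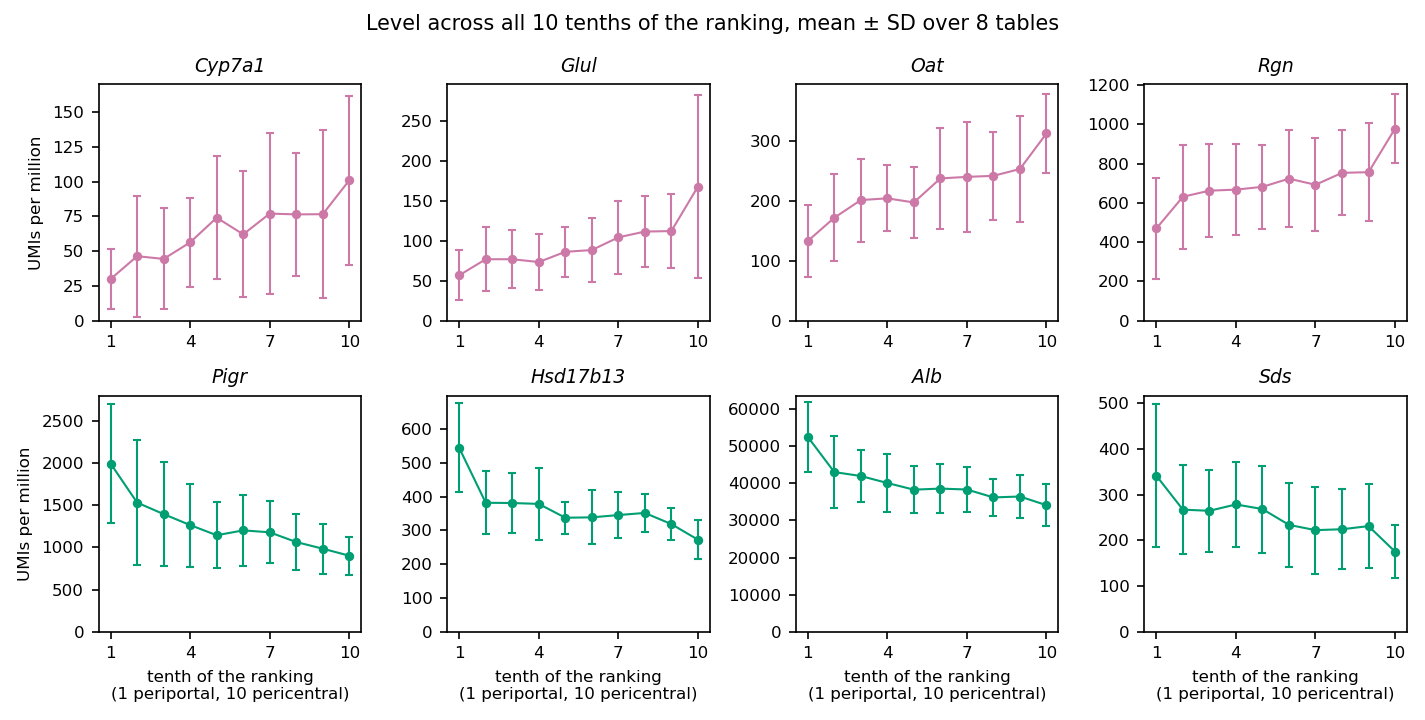
Mean level in CPM (y axis, without TMM scaling) of 8 genes in each of 10 equal bins of the ranking (x axis, 1 most periportal, 10 most pericentral); bars are the SD over 8 tables. Cyp7a1, Glul, Oat and Rgn are highest in bin 10, and Pigr, Hsd17b13, Alb and Sds are highest in bin 1.

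The difference between the sides was also fitted within each treatment, with 1 estimate of the spread for all 16 sums. In PBS, with 2 tables, 29 genes were called (0.535%), 4 on the pericentral side (0.0738%) and 25 on the periportal side (0.461%). In AAVrh.10Null 159 were called (2.93%), 54 (0.996%) and 105 (1.94%). In AAVrh.10mCherry 80 were called (1.48%), 13 (0.24%) and 67 (1.24%). These counts rest on single tables. The PBS count was 0 without mouse 1 and 6 without mouse 4. The AAVrh.10Null count was 16 without mouse 8 and 63 without mouse 2, and the AAVrh.10mCherry count 10 without mouse 9 and 11 without mouse 6. Without mice 2 and 8, which leaves AAVrh.10Null with mouse 5 alone, assumed to vary like the others, the AAVrh.10Null count was 0. Pigr fell in each group, by 1.21 in PBS, 1.38 in AAVrh.10Null and 1.06 in AAVrh.10mCherry. Cyp7a1 had differences of 1.31, 2.07 and 0.97 in that order, of which the last was not called (adjusted p = 0.12). Itih1 fell by 0.94, 0.87 and 0.85, called in all 3 groups.

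Whether the difference depended on treatment was tested directly. AAVrh.10mCherry minus PBS gave 0 genes by edgeR, 0 by DESeq2 and 0 by limma-voom, with 117 at an unadjusted p under 0.05. AAVrh.10Null minus PBS gave 1 gene (0.0185%; 311 at an unadjusted p under 0.05), and AAVrh.10mCherry minus AAVrh.10Null gave 3 (0.0554%; 364), 2 of them lower (0.0369%) and 1 higher (0.0185%). DESeq2 called none in either comparison. These comparisons share tables, so they are not independent. The genes next in rank did not pass. Kank1 and Clock differed by 2.96 (adjusted p = 0.26) and 2.01 (adjusted p = 0.32) in AAVrh.10Null minus PBS, and Mmp19 by -2.91 (adjusted p = 0.50) and Sds by -0.99 (adjusted p = 0.55). In AAVrh.10mCherry minus PBS the 3 genes with the smallest p in each direction had an adjusted p of 1. They were mt-Rnr1, Usp32 and mt-Nd2 (higher) and Dnase1l3, Luzp1 and Zmym2 (lower).

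Nr1i3 was 1 of the 3. Its pericentral and periportal levels were 161 and 60.8 CPM in mouse 1 and 99.5 and 44.6 CPM in mouse 4 (PBS). In AAVrh.10Null they were 270 and 78.0 CPM in mouse 2, 186 and 68.8 in mouse 5 and 316 and 64.8 in mouse 8. In AAVrh.10mCherry they were 149 and 70.7 CPM in mouse 3, 293 and 191 in mouse 6 and 142 and 147 in mouse 9. The pericentral side was higher in all tables but mouse 9, where the 2 sides were about level. The fitted difference was 1.93 ± 0.25 in AAVrh.10Null and 0.45 ± 0.18 in AAVrh.10mCherry, and the change between them was -1.47 ± 0.31 (adjusted p = 0.043). It was not called without mouse 2, 8 or 9.

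Tnrc6a, a scaffold protein of microRNA silencing, was the second. In the 3 AAVrh.10Null tables it was higher on the pericentral side, at 152 against 54.0 CPM (mouse 2), 90.9 against 30.1 (mouse 5) and 203 against 126 (mouse 8). In both PBS tables and all 3 AAVrh.10mCherry tables it was higher on the periportal side. The differences were 1.02 ± 0.26, -0.37 ± 0.24 and -0.57 ± 0.20 in AAVrh.10Null, PBS and AAVrh.10mCherry. The change of AAVrh.10mCherry from AAVrh.10Null was -1.59 ± 0.32 (adjusted p = 0.030), and that of AAVrh.10Null from PBS was 1.39 ± 0.35 and was not called (adjusted p = 0.32). The former was not called without mouse 2 or mouse 9. Hbb-bs, a beta-globin of red cells, was the third and also the 1 gene of AAVrh.10Null minus PBS. In mouse 2 it stood at 2239 CPM on the periportal side and 42.2 CPM on the pericentral side, and 373 of the 373 periportal UMIs came from 1 barcode. Without barcodes of over 1% haemoglobin UMIs, AAVrh.10Null minus PBS gave 0 genes and AAVrh.10mCherry minus AAVrh.10Null gave 2.

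**Figure D4:**
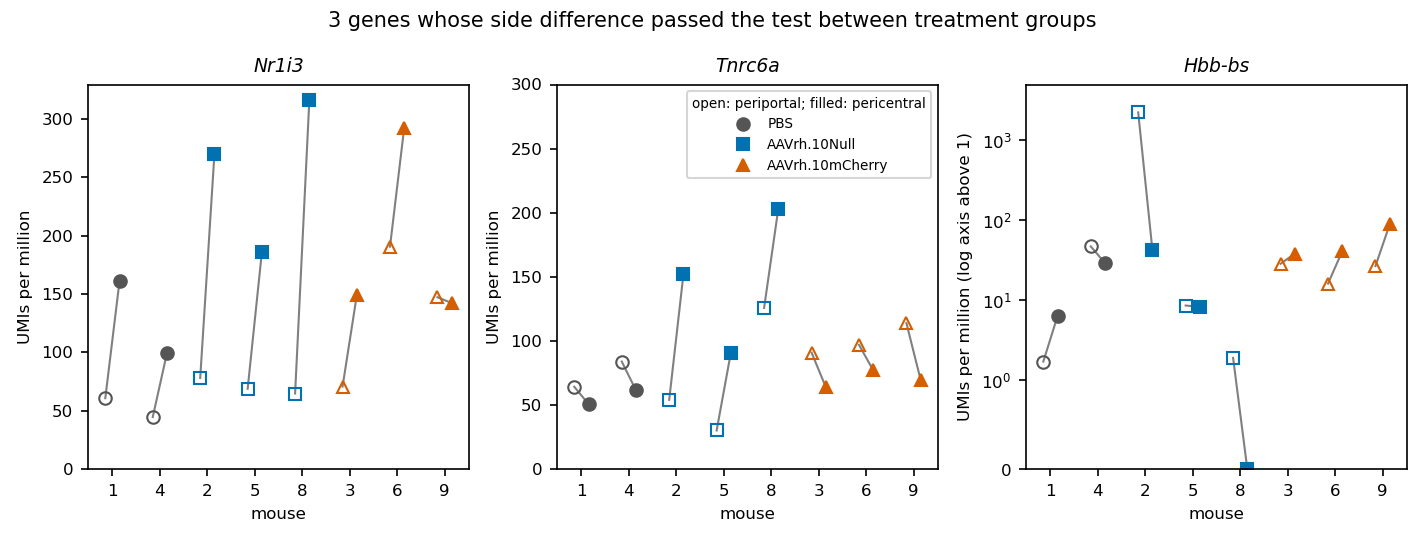
CPM of Nr1i3, Tnrc6a and Hbb-bs on the periportal (open) and pericentral (filled) side of each of 8 tables, by mouse and treatment; the Hbb-bs axis is logarithmic above 1. Tnrc6a runs upward to the pericentral side in mice 2, 5 and 8 and downward in the other 5, and Hbb-bs stands at 2239 in mouse 2.

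mCherry is the transcript delivered by AAVrh.10mCherry. In mouse 3 it was at 7722 CPM on the pericentral side (exact 95% Poisson interval 7505 to 7943, which covers counting error only) and 7996 CPM on the periportal side (7770 to 8226). In mouse 6 it was at 6645 CPM (6288 to 7017) and 3311 CPM (3112 to 3521). In mouse 9 it was at 2031 CPM (1938 to 2128) and 1523 CPM (1443 to 1606). The pericentral value was 2.01 times the periportal one in mouse 6, 1.33 times in mouse 9 and 0.966 times in mouse 3. With TMM scaling 2 tables were thus higher on the pericentral side and 1 slightly lower. Without it, mouse 3 stood at 7988 CPM on the pericentral side and 7825 CPM on the periportal side. The direction in mouse 3 therefore depends on the scaling.

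In the fit, mCherry differed by 0.45 within AAVrh.10mCherry and was not called (adjusted p = 0.13). In the fit over all 8 tables the same gene was counted among the 87 (adjusted p = 0.043), although 5 of those tables had no mCherry vector. The exact sign-flip test over 3 tables gave p = 0.50, and 3 pairs cannot go below 0.25. Without mouse 6 the difference was 0.19, and without mouse 3 it was 0.72 (adjusted p = 0.0096). Across the 10 bins, mCherry went from 3172 to 7336 CPM in mouse 6 and from 1576 to 2111 CPM in mouse 9. In mouse 3 it lay between 7849 and 8332 CPM in all 10.

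The share of selected barcodes with mCherry on the pericentral and periportal sides was 100% and 99.7% in mouse 3, 100% and 94.0% in mouse 6, and 90.3% and 86.2% in mouse 9. Thinned to 1000 UMIs per barcode, the shares were 100% and 99.2%, 100% and 86.3%, and 84.0% and 76.0%. Background was read in the livers without that vector. Mouse 1 (PBS) had 30 and 20 mCherry UMIs, in 4.82% and 3.66% of barcodes, and mouse 5 (AAVrh.10Null) had 4 and 4. Median UMIs per barcode were 1957 and 2005 in mouse 1, against 1323 and 1583 in mouse 6. Mouse 8 had 0 UMIs on both sides, with an exact 95% Poisson upper limit of 20.8 CPM on the pericentral and 7.03 CPM on the periportal side. The tables of mice 2 and 4 list no mCherry and were set to 0. Free mCherry RNA within the AAVrh.10mCherry livers was not measured. Of 17 host genes listed for AAV entry and trafficking, 2 were called on the periportal side, against 4.5% of all genes. They were Egfr (fell by 0.48, SE 0.10) and Ctsl (fell by 0.39, SE 0.09). No test of the list was run.

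**Figure D5:**
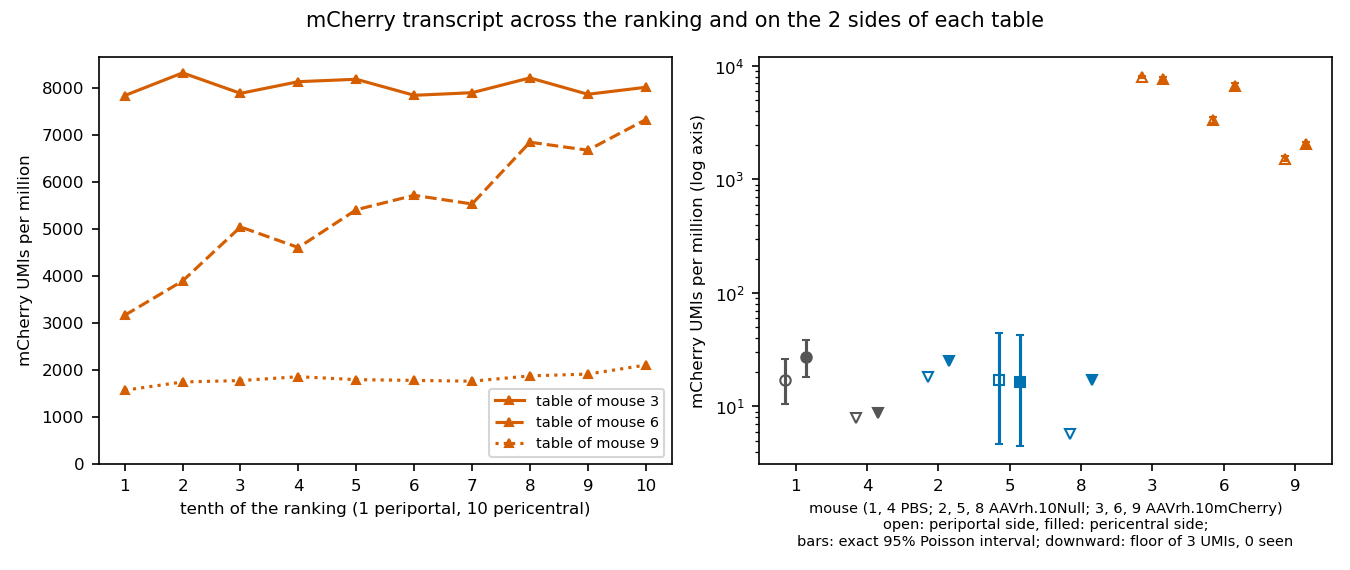
Left, mCherry in CPM (without TMM scaling) across the 10 bins of the ranking in the 3 AAVrh.10mCherry tables; right, its TMM-scaled level on a log axis on each side of all 8 tables, with exact 95% Poisson intervals and downward triangles at the floor of 3 UMIs where the count was 0 (the tables of mice 2 and 4 list no mCherry). Mouse 6 goes from 3172 to 7336 across the bins, and mouse 3 stays between 7849 and 8332.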

How the data were processed

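The data are single-cell transcript counts of 9 mouse livers, and each sample's group is the treatment in its title. The method was Drop-seq on a HiSeq 2500, per the labels' protocols. The genome was mm10 and Seurat was used without a version, per the submitters' processing notes. The deposited values are whole, unscaled UMI counts. The sources used here name no aligner or annotation and no rule for the authors' choice of barcodes. Where a table lists no mCherry (3 of 9), its count was set to 0.

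Barcodes were ranked and summed per table and side, giving 16 sums of 102968 to 1281401 UMIs. No doublet caller was run. Genes were filtered with filterByExpr (5419 of 19278 kept) and tested with edgeR 4.0.16 (R 4.3.3) by glmQLFit and glmQLFTest with TMM scaling and the table as a block, with Benjamini-Hochberg adjustment and a threshold of 0.05. The scripts were tested on simulated data. Each label describes a separate mouse, and mouse numbers are not shared between groups. Shares were compared by exact sign-flip permutation tests over 8 pairs. The mitochondrial share was tested on differences in percent. Malat1 and the marker sums were tested on differences in log2 CPM, with a constant added before taking logs. Alternatives included DESeq2 1.42.0, limma-voom (limma 3.58.1), other scalings, other cuts of the ranking, thinning to 1000 UMIs, and leaving out each table.

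Genes named by rank are, per direction, the 15 with the largest difference among those called with at least 50 CPM on the higher side and the same sign in 8 tables (33 and 146 genes qualified); 1 of these on the periportal side is not reported here. Up to 4 called members per list are named, with further members where their role is described. Between groups, up to 5 genes per direction that passed are named. The lists cover pericentral and periportal genes, metabolic and secretory pathways, stress and antiviral responses, and other liver cells. The ranking, the members and the lists were chosen with earlier results of these data known.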

Additional observations from a re-analysis of the deposited data

Results flagged for a closer look

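Within the 8 tables, 118 named genes were examined for a single table far from the rest, and 6 had one. The nominal rate of the rule is about 1 in 20 for independent values, and 6 of 118 is near it. The genes were chosen by their results and share the same sums, so the chance rate for this set was not measured. Values are log2 differences, pericentral minus periportal. Tsc22d1 stood at 4.71 in mouse 2, against 0.18 to 1.06 in the other tables, and Snhg11 at 3.52, against -0.11 to 1.47. Both had 0 periportal UMIs in mouse 2, so these 2 values depend on the count added before taking logs. Cyp8b1 stood at -1.17 in mouse 2, against -0.53 to -0.04. Akr1c6 stood at 1.70 in mouse 6, against 0.11 to 0.64. Acat1 stood at 0.75 in mouse 6, against 0.14 to 0.40. Pdia6 stood at -1.75 in mouse 8, against -0.71 to -0.24. Mouse 2 had the smallest sides, with 73 barcodes each, and mice 6 and 8 had deeper barcodes on the periportal side.

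The difference between the sides itself differed between treatments for 3 genes in edgeR's quasi-likelihood test, and for none with DESeq2. Hbb-bs changed by -5.13 from PBS to AAVrh.10Null and by 6.46 from AAVrh.10Null to AAVrh.10mCherry, and its periportal UMIs of mouse 2 came from 1 barcode. Nr1i3 changed by -1.47 from AAVrh.10Null to AAVrh.10mCherry. Tnrc6a changed by -1.59 in the same comparison. Neither Nr1i3 nor Tnrc6a was called with 20% or 5% per side, under the mitochondrial limit, without the filter on low counts, in the 3 thinned forms, or without mouse 2 or mouse 9.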

How the results depend on the processing

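Against 87 pericentral and 244 periportal calls, DESeq2 gave 41 and 158, library size alone 181 and 157, no table block 3 and 38, barcodes thinned to 1000 UMIs 10 and 52, thinned sums alone 24 and 106, and ranking alone on thinned barcodes 41 and 154. Pericentral calls were 48 with 20% per side, 56 with at most 20% mitochondrial UMIs and 51 with at most 2 UMIs of other cells' markers. Leaving out 1 table gave 57 to 81 and 181 to 240. The 159 calls within AAVrh.10Null became 87 with DESeq2, 0 without mice 2 and 8, 40 thinned, 47 without mice 6 and 8, 81 with thinned sums and 71 with the thinned ranking, and 16 (without mouse 8) to 221 without 1 table. The 80 within AAVrh.10mCherry became 21, 28, 19, 4 and 51 with DESeq2, without mice 6 and 8, thinned, with thinned sums and with the thinned ranking, and 50 with library size alone, 26 with 20% per side, 128 with 5% per side, 17 under the mitochondrial limit, 51 under the marker limit, and 10 (without mouse 9) to 104 without 1 table. The 29 within PBS became 8 with DESeq2, 18 with library size alone, 46 without mice 2 and 8, 2 with 20% per side, 80 with 5% per side, 3 thinned, 3 under the mitochondrial limit, 19 under the marker limit, 72 without mice 6 and 8, 7 with thinned sums, 10 with the thinned ranking, and 0 (without mouse 1) to 40.

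AAVrh.10Null minus PBS (1 gene) gave 0 with DESeq2, without mice 2 and 8, with 20% per side, with 5% per side, under the mitochondrial limit and without haemoglobin barcodes, 2 with limma-voom, 4 thinned, with the thinned ranking and under the marker limit, and 0 to 13 without 1 table. AAVrh.10mCherry minus AAVrh.10Null (3) gave 0 with DESeq2, without mice 2 and 8, with 20% per side, with 5% per side and under the mitochondrial limit, 5 without the filter on low counts, 1 in each thinned form, and 0 to 21 without 1 table. AAVrh.10mCherry minus PBS (0) gave 2 with 20% per side, 5 thinned, 1 without mice 6 and 8, 4 with the thinned ranking, and 0 to 1 without 1 table. mCherry (0.45) passed the threshold with limma-voom (0.40), without mice 2 and 8 (0.44) and with 5% per side (0.57), and ran from 0.19 to 0.72 without 1 table. Without mice 2, 6 and 8, counts were 110 within PBS, 4 within AAVrh.10Null and 48 within AAVrh.10mCherry, and, for the group comparisons in the order above, 0, 0 and 8. Of the named genes, Malat1 turned to -0.012 without mice 2 and 8, -0.20 thinned and -0.11 with the thinned ranking, Lyz2 to -0.43 thinned and -0.39 with the thinned ranking, Metap1d to -0.14 thinned, and Wfdc17 to -0.012 with 20% per side. The cause was not tested, beyond that thinning and leaving out tables leave fewer UMIs. A minimum of 2000 UMIs could not be run, since only 1 table then had 50 barcodes per side. Leaving out mice 6 and 8 with or without mouse 2, thinning only the sums or only the ranking, and removing haemoglobin barcodes were chosen after seeing the data.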
